A study of Solanum lycopersicum with 3 samples.

Results

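The miR156 family was examined in tomato ovaries as the 5 known mature miRNAs that carry the name sly-miR156, out of 634 miRNAs listed in the count table, of which 125 are known and 509 predicted. The members are sly-miR156a, both arms of sly-miR156d (sly-miR156d-5p and sly-miR156d-3p) and both arms of sly-miR156e (sly-miR156e-5p and sly-miR156e-3p). They were chosen by name alone. The arms are the strands cut from the 5′ and 3′ sides of a hairpin precursor.

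Ovaries of the cultivar UC82 (*Solanum lycopersicum*) made up 3 small RNA libraries, each from the pooled ovaries of 1 condition. AGL6sil ovaries had received dsRNA against *AGL6*, a MADS-box gene, and IAA9sil ovaries dsRNA against *IAA9*, an Aux/IAA gene. Each dose was 5 µg of dsRNA per ovary bound to 1 mg of LDHs, which are layered mineral particles, injected into the flower pedicel. Ovaries of the ctrl library, labelled WT (wild type), were mock-treated with LDHs alone. The labels describe the ovaries of all 3 libraries as pre-anthesis. Buds came from a population of 8 to 10 plants, and all were emasculated 6 h after injection, kept unpollinated and collected after 5 days, so that no library holds pollinated ovaries. The silencing is transient, and the labels describe the ovaries as detached while the protocol leaves the buds on the plant. With 1 library per condition there was no replicate check. Every difference therefore compares these libraries, not the conditions, and no p-value is given. Intervals are exact 95% intervals for counting error alone. PCR copies cannot be told apart in reads that carry no molecular identifier, so these intervals may be too narrow.

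miR156 is a deeply conserved plant miRNA that guides cleavage and translational repression of transcripts of SPL (SBP-box) transcription factors. It is abundant in juvenile tissue and declines with age, releasing the SPL factors, which in Arabidopsis activate *MIR172* genes. miR172 in turn represses AP2-like factors. In tomato, SPL factors act in ovary and fruit development, and *SPL-CNR*, a gene linked to the Colorless non-ripening phenotype, has a miR156 site. SPL transcripts were not analysed here.

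In the RefSeq gene table of the assembly SLM_r2.1, 3 *MIR156* genes are named, and each of the 5 members matches 1 of them by name. The locus of origin of the reads was not tested. *MIR156d* and *MIR156e* are neighbours, with 0 other genes lying wholly between them. Each overlaps a long non-coding RNA gene, LOC138337753 for *MIR156d* and LOC138337754 for *MIR156e*. *MIR156a* lies elsewhere and overlaps LOC104648043 and LOC138349001, also long non-coding RNA genes. How reads that match several family members were assigned is not given in the sources used here, so the division of reads between members with near-identical sequence is uncertain.

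The miR156 family took a small part of the miRNA reads of these ovaries. Its 5 members had 176 reads in ctrl, 236 in AGL6sil and 250 in IAA9sil, out of 1038064, 1460919 and 1053000 miRNA reads, respectively. Per 1000000 miRNA reads, this was 170 in ctrl, 162 in AGL6sil and 237 in IAA9sil. The family thus took a similar part of the miRNA reads in ctrl and AGL6sil and a larger part in IAA9sil. Of the reads on known miRNAs, it made up 0.0175% in ctrl (interval 0.015 to 0.0203), 0.0169% for AGL6sil (interval 0.0148 to 0.0192) and 0.0245% for IAA9sil (interval 0.0216 to 0.0278). The IAA9sil interval did not overlap the other two.

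Among the members, sly-miR156a dominated each library. It was counted 141 times in ctrl, 167 times in AGL6sil and 180 times in IAA9sil, which ranked it 61, 54 and 58 among the 125 known miRNAs. It is therefore a miRNA of middling abundance in all 3 libraries. Its share of the reads of the family was 80.1% in ctrl (interval 73.4 to 85.7), 70.8% for AGL6sil (interval 64.5 to 76.5) and 72.0% for IAA9sil (interval 66.0 to 77.5). The intervals of the shares overlap.

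sly-miR156d-5p, the 5′ arm of its precursor, came next, with 23 reads in ctrl, 65 in AGL6sil and 62 in IAA9sil. In counts before scaling, the ctrl library was low, and both silenced libraries were near each other. With each library divided by its median count, sly-miR156d-5p had a log2 ratio to ctrl of 0.41 in AGL6sil (interval −0.30 to 1.16). In IAA9sil the log2 ratio of sly-miR156d-5p was 1.21 (interval 0.50 to 1.97). Its rank among the known miRNAs was 86 in ctrl, 69 in AGL6sil and 72 in IAA9sil, and its share of the family was 13.1% (interval 8.47 to 19.0), 27.5% (interval 21.9 to 33.7) and 24.8% (interval 19.6 to 30.6). Here the ctrl interval lay below that of either silenced library.

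The remaining 3 members were close to the limit of detection. sly-miR156d-3p, the opposite arm of the d precursor, had 3 reads in ctrl, 0 in AGL6sil and 1 in IAA9sil. For AGL6sil, 0 of the 236 family reads allows a share of up to 1.27% when 3 reads are taken as the limit. The exact interval ends at 1.55%. sly-miR156e-5p had 3, 2 and 6 reads, and sly-miR156e-3p had 6, 2 and 1 reads, in the same order of libraries. Together these 3 members had 24 of the 662 reads of the family, and sly-miR156a and sly-miR156d-5p had 96.4%. All 5 members had a read in ctrl and IAA9sil, and 4 in AGL6sil. A threshold of 50 reads over the 3 libraries, as the study used, was passed by sly-miR156a with 488 reads and sly-miR156d-5p with 150, and not by the others with 4, 9 and 11.

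**Figure D1:**
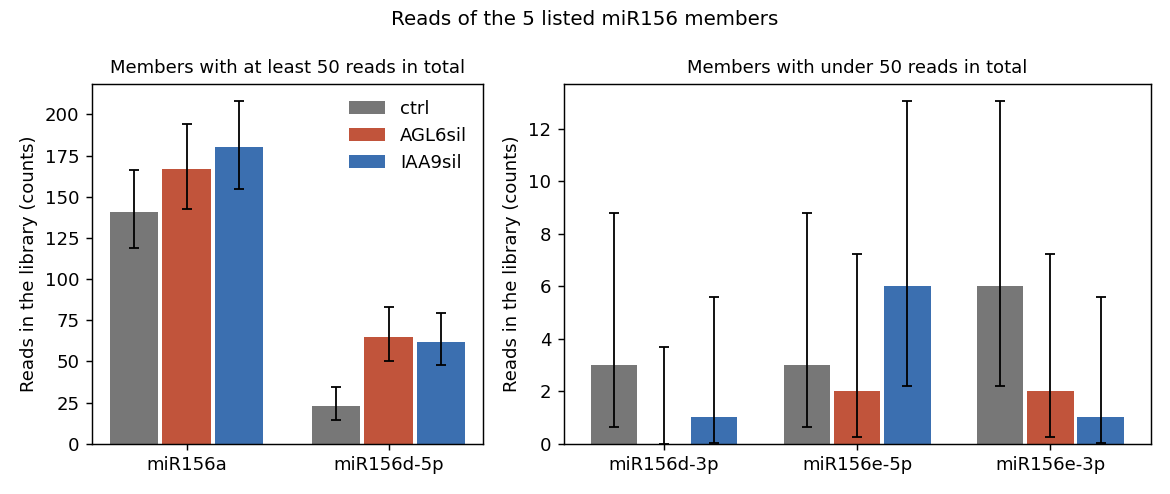
Reads (counts, vertical axes, linear) of each miR156 member in ctrl, AGL6sil and IAA9sil, with bars for the deposited count and error bars for its exact 95% Poisson interval; the panels have different axes. sly-miR156a lies between 141 and 180 reads in the 3 libraries, sly-miR156d-5p has 23 reads in ctrl against 65 and 62, and no other member exceeds 6 reads.

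The balance between sly-miR156d-5p and sly-miR156a differed between ctrl and the silenced libraries. This ratio is formed within a library and needs no scaling for depth. There were 0.163 reads of sly-miR156d-5p per read of sly-miR156a in ctrl (interval 0.1 to 0.255), 0.389 for AGL6sil (interval 0.288 to 0.521) and 0.344 for IAA9sil (interval 0.254 to 0.462). The ratio was thus 2.39-fold higher in AGL6sil than in ctrl (interval 1.38 to 4.23) and 2.11-fold higher in IAA9sil (interval 1.22 to 3.75). On the log2 scale these differences are 1.25 (interval 0.46 to 2.08) and 1.08 (interval 0.28 to 1.91). Between the silenced libraries it differed by 1.13-fold, with an interval of 0.737 to 1.73 that includes 1. The same 23 reads of the ctrl library enter both comparisons, so they are not independent of each other. The ratio was singled out after the counts had been seen, and how far it varies between pools of ovaries cannot be read from 1 library per condition. Other known miRNAs also shifted against each other. In AGL6sil, the log2 ratios to ctrl of the 91 with at least 50 reads had quartiles of −2.13 and −0.21. In IAA9sil the quartiles were −0.51 and 0.24. A shift of 1.25 between known miRNAs is therefore not unusual in AGL6sil.

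**Figure D2:**
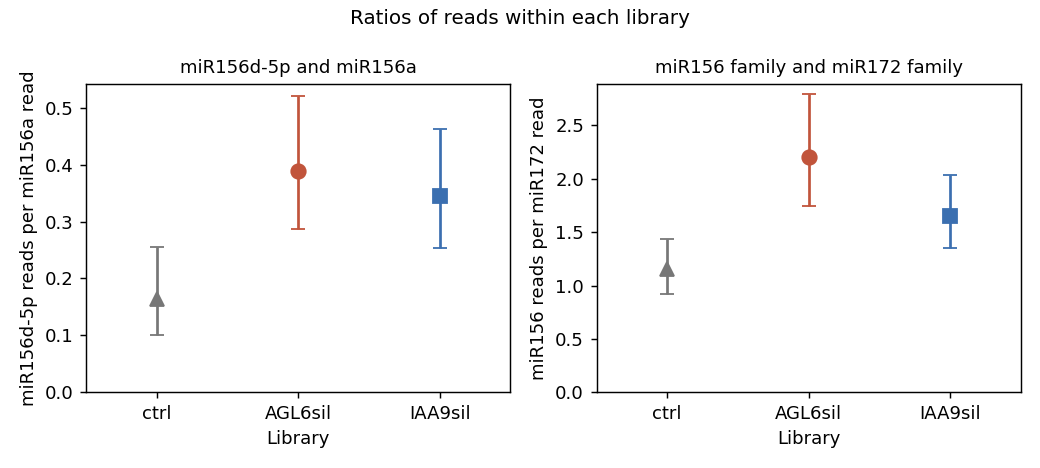
Ratio of reads within each library (vertical axes, linear, from 0) for sly-miR156d-5p per sly-miR156a on the left and for the miR156 family per the miR172 family on the right; points are the ratios and bars exact 95% counting intervals. The left ratio is 0.163 in ctrl against 0.389 and 0.344, and the right ratio is 1.15 in ctrl against 2.21 in AGL6sil and 1.66 in IAA9sil.

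The arms of the d precursor were strongly unequal, with the 5′ arm as the main product. The 3′ arm held 11.5% of the reads of the precursor in ctrl (3 of 26, interval 2.45 to 30.2) and 1.59% in IAA9sil (1 of 63, interval 0.04 to 8.53). In AGL6sil it was not detected among 65 reads, which allows a share of up to 4.62% when 3 reads are taken as the limit. The exact interval ends at 5.52%. At this depth no difference in arm use between IAA9sil and ctrl was detectable, since the interval of the odds ratio, 0.00232 to 1.67, includes 1. For AGL6sil the interval ended at 0.929, which rests on 0 reads of the 3′ arm against 3 in ctrl. The arm with fewer reads also had a lower share in AGL6sil than in ctrl for 18 of 26 other known precursors.

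The arms of the e precursor did not show a main product. The 3′ arm had 66.7% of 9 reads in ctrl (interval 29.9 to 92.5), 50% of 4 reads in AGL6sil (interval 6.76 to 93.2) and 14.3% of 7 reads in IAA9sil (interval 0.361 to 57.9). These intervals overlap widely. Both precursors, whose genes are neighbours, were also unequal to each other. There were 0.346 reads on the e precursor per read on the d precursor in ctrl (9 against 26), 0.0615 in AGL6sil (4 against 65) and 0.111 in IAA9sil (7 against 63). On the log2 scale AGL6sil differed from ctrl by −2.49 (interval −4.74 to −0.48) and IAA9sil by −1.64 (interval −3.44 to 0.13). This ratio was not planned beforehand and rests on 9, 4 and 7 reads of the e precursor. It also shares the ctrl count of 23 sly-miR156d-5p reads with the ratio to sly-miR156a, so the differences are not independent. Known miRNAs also shifted against each other in AGL6sil, where their log2 ratios had quartiles of −2.13 and −0.21.

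When both precursors were added, a grouping chosen after their values were seen, the 3′ arms had 9 of 35 reads in ctrl (25.7%, interval 12.5 to 43.3), 2 of 69 in AGL6sil (2.90%, interval 0.353 to 10.1) and 2 of 70 in IAA9sil (2.86%, interval 0.348 to 9.94). The ctrl library was the high one. This sum mixes the use of the arms with the balance of the precursors, since the e precursor, with the larger 3′ share, gave 9 of the 35 reads in ctrl but 4 of 69 and 7 of 70 in the silenced libraries. It therefore does not show a change in arm use. Of the 26 other known precursors with both arms listed, the 3′ arm had a lower share than in ctrl for 11 in AGL6sil and 14 in IAA9sil, and a higher share for 15 and 11. The 3′ arm is the one with fewer reads in both miR156 precursors, but in only 7 of these 26. For the arm with fewer reads, whichever it was, the share was lower than in ctrl for 18 of the 26 in AGL6sil and 11 in IAA9sil.

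To set the levels against ctrl, each library was divided by its median count over all 634 miRNAs, and the log2 ratio to ctrl was taken. The medians were 15.5 in ctrl, 33 in AGL6sil and 18 in IAA9sil, so that AGL6sil counts are divided by 2.13 and IAA9sil counts by 1.16. On this scale the log2 ratio of the whole family was −0.67 (interval −0.95 to −0.38) for AGL6sil and 0.29 (interval 0.01 to 0.58) for IAA9sil.

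For sly-miR156a the log2 ratio was −0.85 (interval −1.18 to −0.51) for AGL6sil and 0.14 (interval −0.19 to 0.46) for IAA9sil. For sly-miR156d-5p it was 0.41 (interval −0.30 to 1.16) and 1.21 (interval 0.50 to 1.97), respectively, the latter being 2.32-fold higher in IAA9sil than in ctrl (interval 1.42 to 3.93). On this scale sly-miR156d-5p was above ctrl beyond counting error in IAA9sil, and in AGL6sil its interval included 0. Over 8 scalings the interval lay above 0 under all 8 in IAA9sil and under 5 in AGL6sil. sly-miR156e-3p was at −2.68 (interval −6.02 to −0.19) for AGL6sil and at −2.80 (interval −8.32 to 0.24) for IAA9sil. sly-miR156e-5p in IAA9sil was at 0.78 (interval −1.44 to 3.41). For the other low counts, where both libraries had 3 reads or fewer, no ratio is given.

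With the thresholds of the study, here at least 50 reads before scaling over the 3 libraries and a log2 ratio of at least 1.5 in size, 0 of the 5 members were called in AGL6sil and 0 in IAA9sil. Among known miRNAs past the same read limit, 91 in number, 4.4% were called higher and 42.9% lower in AGL6sil, and 0% higher and 6.59% lower in IAA9sil. Over all 374 listed miRNAs with at least 50 reads, the shares were 7.75% higher and 13.6% lower in AGL6sil, and 2.41% higher and 4.55% lower in IAA9sil. With 2 members past the read limit, a count of 0 says little about the family. With a threshold of 1.5-fold, sly-miR156a was called lower in AGL6sil, as were 64.8% of the known miRNAs, and sly-miR156d-5p was called higher in IAA9sil, as were 12.1%. Without the read limit, 2 members each were called lower in AGL6sil and in IAA9sil, against 44% and 8% of the 125 known miRNAs. These were sly-miR156e-3p in both, sly-miR156e-5p in AGL6sil and sly-miR156d-3p in IAA9sil, and none of these counts exceeded 6 reads.

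The place of a member among the known miRNAs does not depend on the scale. In AGL6sil, sly-miR156d-5p had the 7th highest of 91 log2 ratios, below those of sly-miR398a, sly-miR397-3p, sly-miR9474-5p, sly-miR482a, sly-miR7981a and sly-miR10531. In IAA9sil it had the 2nd highest, below that of sly-miR171a at 1.36. sly-miR156a had rank 37 of 91 in each comparison. The median of the 91 was −1.20 in AGL6sil, with quartiles of −2.13 and −0.21, and −0.02 in IAA9sil, with quartiles of −0.51 and 0.24. sly-miR156d-5p thus lay above the upper quartile of known miRNAs in both comparisons, and sly-miR156a lay between the quartiles in both. In AGL6sil the counting interval of sly-miR156d-5p, −0.30 to 1.16, reached below that quartile, so its rank there is uncertain. In IAA9sil the interval, 0.50 to 1.97, lay above the upper quartile. It reached below the ratios of other known miRNAs, among them sly-miR6026 at 1.12 and sly-miR9471a-3p at 1.03. The rank of sly-miR156d-5p in IAA9sil is therefore uncertain too.

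**Figure D3:**
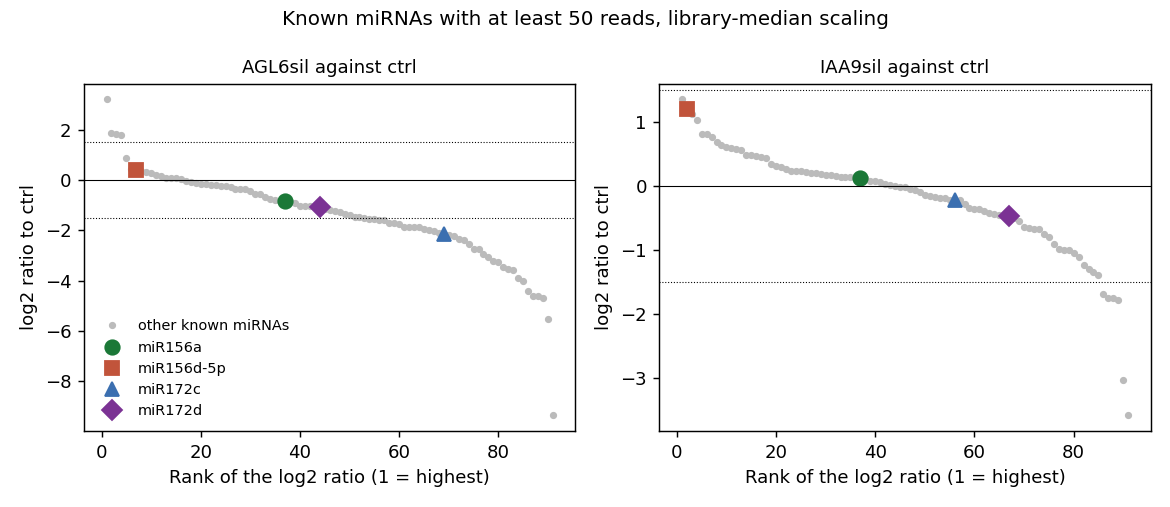
Log2 ratio to ctrl (vertical axis, library-median scaling) of 91 known miRNAs past the limit of 50 reads, ordered by rank (horizontal axis), for AGL6sil on the left and IAA9sil on the right; dotted lines mark a log2 ratio of 1.5 in size. sly-miR156d-5p has rank 7 and 2, and sly-miR156a rank 37 in each panel.

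The direction of sly-miR156a in AGL6sil turned with the scale. Over 8 scalings its log2 ratio there ran from −0.85 to 0.64 and was above 0 under 3 of them, and that of the whole family ran from −0.67 to 0.82. In IAA9sil both were above 0 under all 8, from 0.14 to 0.48 for sly-miR156a and from 0.29 to 0.63 for the family. sly-miR156d-5p was above 0 under all 8 scalings in both libraries, from 0.41 to 1.89 in AGL6sil and from 1.21 to 1.56 in IAA9sil. It passed the log2 threshold of 1.5 in AGL6sil with the median of known miRNAs as the scale (17.6% of known miRNAs called higher, 15.4% lower) and with the clean reads (12.1% higher, 16.5% lower), and in IAA9sil with the clean reads (2.2% higher). The log2 scaling factor itself ranged from −0.39 to 1.09 in AGL6sil and from −0.13 to 0.22 in IAA9sil.

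**Figure D4:**
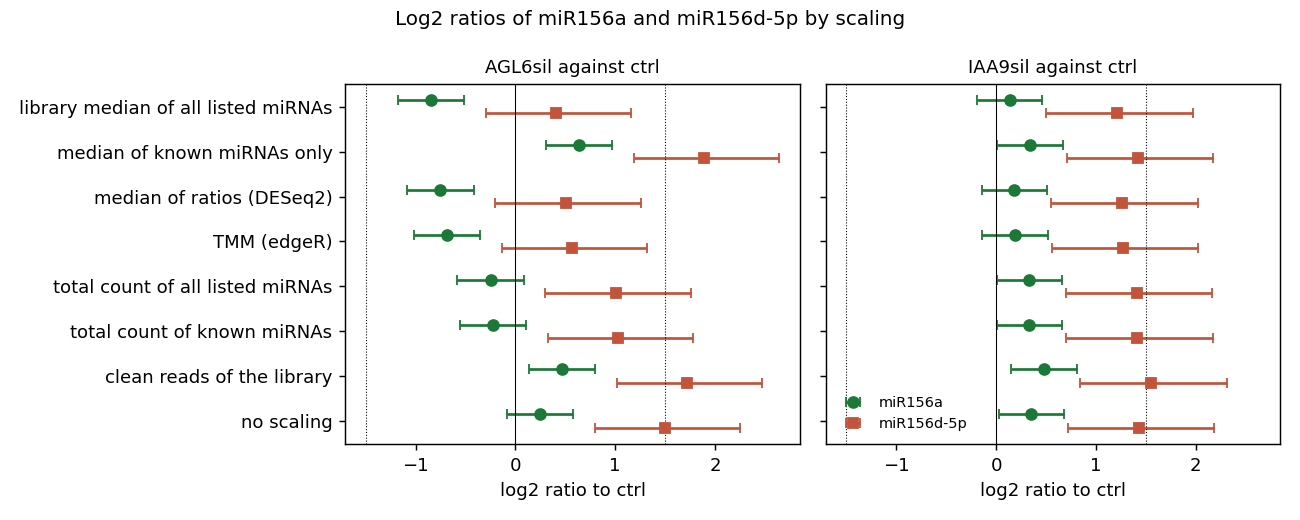
Log2 ratio to ctrl (horizontal axis) of sly-miR156a and sly-miR156d-5p under each of 8 scalings (rows), for AGL6sil on the left and IAA9sil on the right; bars are exact 95% counting intervals and dotted lines mark a log2 ratio of 1.5 in size. In AGL6sil sly-miR156a moves from −0.85 to 0.64 across the scalings, while sly-miR156d-5p stays above 0 in both panels.

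The known miRNAs nearest to each member in their pattern over the 3 libraries were taken by the Euclidean distance of centred log2 scaled counts. With 3 libraries such a likeness is weak. For sly-miR156a the nearest were sly-miR10536 (117, 127 and 100 reads in the AGL6sil, IAA9sil and ctrl libraries, distance 0.013), sly-miR171e (167, 142 and 126 reads, distance 0.242) and sly-miR319b (3071, 2907 and 2920 reads, distance 0.254). A distance of up to 1 was reached by 54 of the 89 known miRNAs outside the family. For sly-miR156d-5p they were sly-miR6026 (386, 395 and 156 reads, distance 0.136), sly-miR10534 (88, 80 and 39 reads, distance 0.298) and sly-miR10538 (96, 67 and 37 reads, distance 0.427), and 23 of the 89 lay within a distance of 1. The pattern of sly-miR156d-5p thus had fewer known miRNAs near it than that of sly-miR156a.

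The partner of miR156 in the age pathway, miR172, is listed with 3 members. The sequences of sly-miR172a and sly-miR172c, given by the study, are shown because they bear on how far the reads of these members can be told apart. Capitals mark the only base at which they differ, position 21 counted from the 5′ end.
sly-miR172a: agaaucuugaugaugcugcaU
sly-miR172c: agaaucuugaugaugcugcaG

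sly-miR172a was counted 18 times in ctrl, 2 times in AGL6sil and 28 times in IAA9sil. sly-miR172c had 58, 28 and 58 reads, and sly-miR172d had 77, 77 and 65. AGL6sil was the low library for the first pair, and sly-miR172d was level between ctrl and AGL6sil before scaling. The log2 ratios in AGL6sil were −4.26 for sly-miR172a (interval −7.41 to −2.20), −2.14 for sly-miR172c (interval −2.85 to −1.47) and −1.09 for sly-miR172d (interval −1.56 to −0.62). In IAA9sil they were 0.42 (interval −0.48 to 1.36), −0.22 (interval −0.77 to 0.33) and −0.46 (interval −0.96 to 0.04), and none of these intervals excluded 0. With the read limit applied to counts before scaling, as for miR156, sly-miR172c was called lower in AGL6sil and 0 of the 3 were called in IAA9sil, where 42.9% and 6.59% of the known miRNAs were called lower. sly-miR172a, with 48 reads before scaling, lay just under the limit and was not called for that reason alone. The study itself lists both sly-miR172a and sly-miR172c as lower in AGL6sil. The call of sly-miR172c held under 5 of the 8 scalings, and the direction of sly-miR172d in AGL6sil turned positive under 2.

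Set against each other within a library, miR156 outweighed miR172 more in the silenced libraries than in ctrl. There were 1.15 miR156 reads per miR172 read in ctrl (176 against 153, interval 0.921 to 1.44), 2.21 in AGL6sil (236 against 107, interval 1.75 to 2.80) and 1.66 in IAA9sil (250 against 151, interval 1.35 to 2.04). Compared with ctrl the ratio was 1.92-fold higher for AGL6sil (interval 1.38 to 2.66) and 1.44-fold higher for IAA9sil (interval 1.06 to 1.96). Between the silenced libraries it differed by 1.33-fold with an interval of 0.971 to 1.83 that includes 1. The families contributed unequally. Before scaling, the miR172 rows together had fewer reads in AGL6sil than in ctrl and the miR156 rows more. On the library-median scale both were below ctrl in AGL6sil, with log2 ratios of −0.67 for miR156 and −1.61 for miR172. The direction of miR156 there turned with the scale. In IAA9sil miR172 was close to ctrl before scaling, at 151 against 153 reads. Without sly-miR156d-5p the difference was 1.60-fold in AGL6sil (interval 1.13 to 2.25). In IAA9sil it was then 1.25-fold with an interval of 0.902 to 1.72 that includes 1. The ratios with and without sly-miR156d-5p share the same miR172 reads, so their intervals cannot be set against each other. In these counts, leaving it out lowered the log2 difference from 0.53 to 0.32 in IAA9sil and from 0.94 to 0.68 in AGL6sil. Whether this holds in other ovary pools was not tested. This ratio, too, was formed after the counts had been seen, and both comparisons share the ctrl library. In AGL6sil the log2 ratios of known miRNAs had quartiles of −2.13 and −0.21, so a shift of this size was not unusual there.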

How the data were processed

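Small RNA of 3 ovary pools was sequenced as 1 library each. The authors mapped cleaned small RNA reads to the tomato genome with Bowtie (version and build not given in the sources used here), identified known miRNAs against miRBase, whose release is named inconsistently, predicted others with miREvo and mirdeep2, and deposited the raw read counts per mature miRNA. Columns were matched to samples by the column names in the labels.

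From the counts, exact 95% Clopper-Pearson intervals of shares and of pairs of counts, exact conditional intervals of odds ratios and exact Poisson intervals of single counts were computed with scipy 1.17.1, pandas 2.3.3 and numpy 2.4.6 under Python 3.11.15. Only the intervals of pairs of counts and of odds ratios were tested on simulated data. A count of 0 allows up to 3 reads; where calls or ranks needed a value, 0 was taken at 3. The main scale was the library median. The alternatives were the median of known miRNAs, the size factors of DESeq2 1.42.0, the TMM factors of edgeR 4.0.16 (R 4.3.3), the total counts, the clean reads stated by the study and no scaling.

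Named are every miR156 member, the listed miR172 members as pathway partners (no row carried the names miR157, miR529 or miR535), and for each member past 50 reads the 3 nearest known miRNAs. The known miRNAs above sly-miR156d-5p were named after their values were seen. Members and lists were chosen with earlier results of these data known. miR156 sequences were not used here.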

Additional observations from a re-analysis of the deposited data

How the results depend on the processing

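The family's log2 ratio in AGL6sil, −0.67, changed most with the scale. It was 0.82 with the median of known miRNAs, 0.65 with the clean reads, 0.42 without scaling, −0.070 with the total count of all listed miRNAs and −0.048 with that of known miRNAs, and −0.11 without sly-miR156a, the member with the most reads. With the size factors of DESeq2, TMM or a pseudocount of 1 it stayed within its counting interval. In IAA9sil, where the family was at 0.29, it moved beyond that interval with the clean reads (0.63) and without sly-miR156a (0.78). The number of members called in AGL6sil was 1 with the median of known miRNAs, 1 with the clean reads, 1 with a 1.5-fold threshold and 2 without the read limit. In IAA9sil it was 1 with the clean reads, 1 with a 1.5-fold threshold and 2 without the read limit. It was 0 under each of the other alternatives. Without the known miRNA with the most reads in the denominator, the family's share of known reads was 0.0272% for ctrl, 0.0314% for AGL6sil and 0.0431% for IAA9sil. A pseudocount of 1 left the arm shares within their intervals and gave log2 differences of 1.22 in AGL6sil and 1.04 in IAA9sil for sly-miR156d-5p relative to sly-miR156a, an alternative chosen after seeing the data. For miR156 relative to miR172, leaving out sly-miR172a, also chosen after seeing the data, gave 0.79 in AGL6sil and 0.64 in IAA9sil in place of 0.94 and 0.53.

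Counting limits the result to sly-miR156a and sly-miR156d-5p, and the variation between ovary pools was not measured. Leaving out a library was not possible with 1 per condition. No paired analysis was possible because each condition has 1 library. Summing members of identical sequence was not run, since miR156 sequences were not used here.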
